A study of Gallus gallus with 65 samples.

Results

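The comparison of neomycin-treated with control chick utricle at 0 hr of recovery was followed across the transcription factor families on the array. It was taken as every array whose title carries the 0 hr neomycin utricle name, which gave 25 of the 65 arrays of the series and 3 of its 9 biological replicates. Replicates 1, 2 and 3 were hybridized to 4, 11 and 10 arrays. The utricles came from White Leghorn chicks aged 10 to 21 days after hatching and were grown in organ culture for 24 hr. Treated cultures held 1 mM neomycin sulfate and the time-matched controls did not, and both were otherwise handled in the same way. The 0 hr epithelia were collected as the drug period ended, while the other arrays sampled 24 and 48 hr of recovery in drug-free medium. Each biological sample pooled RNA from 4 treated and 4 control sensory epithelia, so no value belongs to a single animal. The sensory epithelium was harvested whole, with its supporting cells and whatever hair cells the drug had left, and fewer cells of a type cannot be told apart here from less RNA per cell.

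The utricle is a balance organ of the inner ear. Its sensory epithelium holds mechanosensory hair cells and the supporting cells around them. Aminoglycoside antibiotics such as neomycin kill hair cells, and in birds the supporting cells then divide or convert to replace them, a step that the mammalian inner ear largely lacks. Transcription factors of many families act in the formation of hair cells during development, among them the bHLH factor ATOH1, the POU factor POU4F3 and the repressor GFI1. The comparison asked which transcription factor genes differed in RNA level between damaged and undamaged epithelia as the damage was being completed.

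Amplified RNA from the treated and the control pool was labeled with Cy3 and Cy5 and hybridized together to 50-base probes designed for human genes. A log2 ratio above 0 means more signal from the neomycin pool. The title digit names the dye of that pool, 3 for Cy3 on 13 arrays and 5 for Cy5 on 12, and the scanner file headers gave the same orientation on 25 of 25 arrays. Duplicate spots, then arrays within a digit, then the 2 digits were averaged to 1 value per replicate. Of the 1507 gene probes, 226 were too dim and 1281 were tested. Names of 702 of the 1281 matched a chicken gene symbol or synonym in RefSeq. Array names can be old, so a name without a match does not mean a missing chicken gene. The paper reports, without showing the data, that nearly all of its probes passed a stated level of identity to their chicken ortholog. How well a human probe binds its chicken transcript was not measured here.

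The signals were low. Brightness, the median over all arrays of the 2 dyes combined, had a median of 376 over the gene probes and was under 1000 for 89.85% of them. In Cy3 the median array had a spot signal 2.12 times its local background, and in Cy5 the factor was 2.16. On 2 arrays of replicate 3, 1 of each digit and sharing an image date, the pattern of probe brightness correlated at 0.184 and 0.189 with the median of all arrays, against 0.447 to 0.879 for the other 23. A single further array, array 3 of digit 5 in replicate 2, was the farthest of the 25 from the median ratio for 40 of the 125 named genes. Results are given with these arrays. Values without them, a step taken after seeing the data, follow for the described means of 0.1 or more in size that moved by more than 1.5 times and for the described members that crossed an unadjusted p of 0.05.

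The 3 biological replicates shared little of their ratio pattern. Across the 1281 probes, which are not independent points, replicates 1 and 3 correlated at r = 0.44, replicates 1 and 2 at -0.09 and replicates 2 and 3 at -0.19. Between single arrays of the same replicate and digit the median correlation was 0.08 over 47 pairs. Between opposite digits of a replicate it was -0.06 over 59 pairs. Among arrays of the same digit from other replicates the lowest of 97 correlations was -0.385, so the direction of each ratio rests on the titles and headers and not on likeness between arrays. With all signs turned, every higher and lower count below would swap.

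No probe passed the test. In a moderated limma test of the mean over the 3 replicates, 0 of 1281 probes (0%) had a Benjamini-Hochberg adjusted p under 0.05. The smallest adjusted p was 0.214. At an unadjusted p under 0.05 there were 78 probes (6.09%), 47 with a ratio above 1 (3.67%) and 31 below (2.42%), where 64.05 would fall there by chance if no probe differed. A ratio past 1.2-fold together with that p was met by 38 probes (2.97%), 26 higher (2.03%) and 12 lower (0.937%). The replicates are pools labeled as separate biological samples. The p-values set the 0 hr mean against a spread pooled over the 9 replicates of the 3 recovery times and moderated over probes. They measure spread between replicate values, which holds differences between such pools together with differences between hybridizations, and the fit does not separate these. All directions named below are therefore directions of measured ratios, and none is a called difference.

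The ratios themselves were small. Their median over all probes was -0.01 and they ran from -0.44 to 0.56 on the log2 scale, while the median SD over the 3 replicates was 0.135. The sign was the same in all 3 replicates for 347 probes (27.1%) and also in both digits for 243 (19%), 141 of them higher (11%) and 102 lower (7.96%). Splitting the arrays further, by replicate and image date, gave 9 sets, and 16 probes (1.25%) kept 1 sign in all 9. Of the 78 probes at an unadjusted p under 0.05, 10 had replicates of mixed sign and 8 had digits of opposite sign.

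The 20 probes described first are the 10 in each direction with the smallest unadjusted p among those whose sign was shared by the 3 replicates and by the 2 digits. They were chosen by their ratios, so their ratios are a description. Adjusted p from limma ran from 0.214 to 0.762 over the 20. Of them 12 belong to a family list, their brightness ran from 365 to 1422, and 0 met the detection rule, under which the mean of both dyes exceeded 1000 on 50% or more of each replicate's arrays.

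RGC32, a cell cycle regulator first described as a gene induced by complement, had the smallest adjusted p. Its log2 ratio was 0.33, 0.32 and 0.46 in replicates 1, 2 and 3, with a mean of 0.37 ± 0.08 (SD, n = 3) or 1.29-fold (limma adjusted p = 0.214). The 3 replicate values lay close together, but replicate 2 was 0.66 in digit 3 and -0.02 in digit 5. Without its digit 3 array at 2.03, replicate 2 was 0.18 and the mean 0.33. The ratio was positive on 20 of 25 arrays, from -0.73 to 2.03 with a median of 0.27. Arrays with neomycin in Cy3 gave 0.44 and those with neomycin in Cy5 gave 0.30. FLJ10697, the zinc finger gene ZNF532, shared the smallest adjusted p, with 0.48, 0.22 and 0.44 in the replicates (mean 0.38 ± 0.14, SD). It too was positive on 20 of 25 arrays.

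GTF2A1 encodes a subunit of TFIIA, which helps the TATA-binding protein hold the core promoter. It had the highest mean of all tested probes, 0.56 ± 0.35 (SD, n = 3) or 1.48-fold, with 0.95, 0.26 and 0.48 in the replicates. Replicate 1 was far above the others, yet the ratio was positive in 9 of 9 array sets and on 19 of 25 arrays. The limma adjusted p was 0.384.

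TBX15, a T-box factor of limb and craniofacial mesenchyme in mice, gave 0.60, 0.07 and 0.55, so that replicate 2 stood near 0 and the others high. Its mean was 0.40 ± 0.29 (SD, n = 3) with a limma adjusted p of 0.317. Leaving out replicate 2 raised the mean to 0.57 and brought the adjusted p to 0.0271 (range over all settings 0.0271 to 0.999), the only such call made by leaving out a replicate. KIAA1528, the Notch pathway ubiquitin ligase gene DTX2, had the same layout at 0.42, 0.09 and 0.42. The probes GALNT3, for an enzyme that starts mucin-type O-glycosylation, and HIVEP2, for a large zinc finger protein, were positive in every replicate at 0.46, 0.25 and 0.29 and at 0.41, 0.25 and 0.19. HHEX, a homeobox repressor, was the most even of the higher probes at 0.21, 0.26 and 0.34. ZID, a BTB zinc finger gene, and LOC91614 closed the higher group with means of 0.28 and 0.29.

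Among the lower ratios VDR, the vitamin D receptor, varied least. It gave -0.23, -0.32 and -0.23 in the replicates, a mean of -0.26 ± 0.05 (SD, n = 3; limma adjusted p = 0.513). The ratio was negative on 21 of 25 arrays and was -0.26 and -0.27 in the 2 digits. CROC4 was also negative on 21 of 25 arrays and in 9 of 9 sets, with -0.46, -0.27 and -0.18. MC1R, the melanocortin receptor, gave -0.52, -0.07 and -0.47, again with replicate 2 nearest 0. Without the single array of replicate 2, that replicate of MC1R stood at 0.01.

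ZNF288, the repressor ZBTB20, gave -0.13, -0.20 and -0.47. HMGIY, an architectural chromatin protein, averaged -0.30, with replicate 2 nearest 0. TCF8, the repressor ZEB1, gave -0.38, -0.08 and -0.46, and without the single array of replicate 2 that replicate stood at 0.06. Of these, ZNF288 and HMGIY were negative in 9 of 9 array sets. SIX3, a homeobox factor of the forebrain and eye field, gave -0.24, -0.14 and -0.44. KIAA1041, the forkhead gene FOXJ3, had the most negative mean of the 10 at -0.40, but replicate 3 at -0.83 lay far below replicates 1 and 2 at -0.14 and -0.22, and its SD was 0.38.

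**Figure D1:**
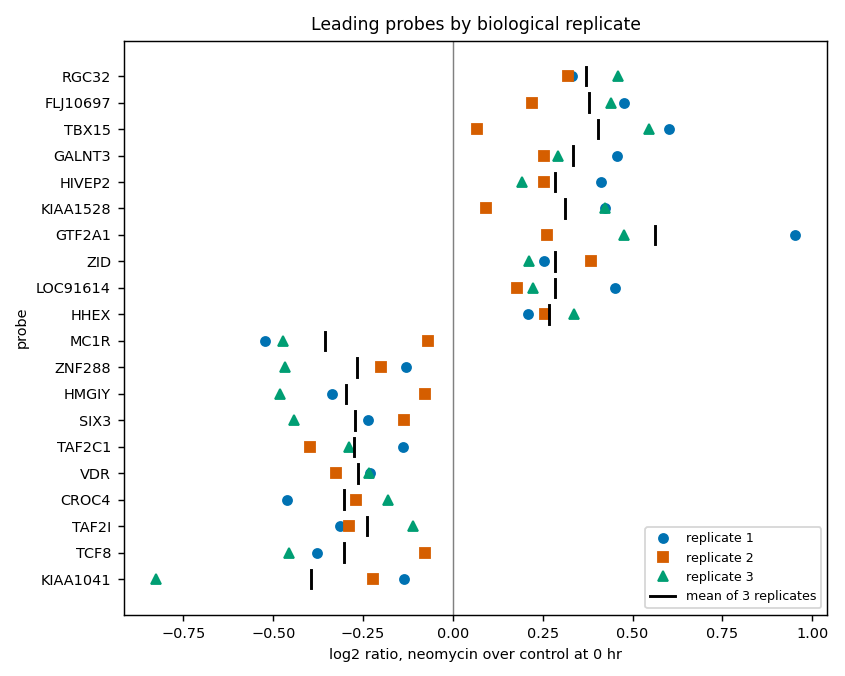
Log2 ratio of neomycin over control at 0 hr (x axis) for the 20 leading probes (y axis), with 1 point per biological replicate and a bar at the mean of the 3. No point crosses 0, which the choice of probes fixed, and replicate 2 of TBX15 (0.07) lies near it while replicate 1 of GTF2A1 (0.95) and replicate 3 of KIAA1041 (-0.83) stand apart from their pairs.

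The plot of the leading probes by replicate shows how unevenly the replicates carried these means. Without the 2 arrays that stood apart, 20 of the 20 kept their sign, with limma adjusted p from 0.126 to 0.778. TAF2C1, a TFIID subunit, moved from -0.28 to -0.16, its replicate 3 turned from -0.29 to 0.05, and its unadjusted limma p went from 0.00789 to 0.121, so that it would not have been among the 20. The others moved by less than 1.5 times. The count at an unadjusted p under 0.05 was then 96, which shared 73 with the 78, and the count of calls stayed at 0. Without the single array of replicate 2 the count was 81, with 61 shared, and 0 were called. The means of all 20 leading probes kept their sign, and 18 stayed at an unadjusted p under 0.05. TAF2I (limma p = 0.0703) and TCF8 (limma p = 0.0537) did not. Replicate 2 of MC1R and of TCF8 then stood above 0, so neither would have been among the 20.

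The dye orientation mattered for some of the probes with small p. GTF2E2, a subunit of TFIIE, the factor that brings TFIIH to the promoter, had the lowest mean ratio of all at -0.44, with -0.42, -0.48 and -0.41 in the replicates (limma adjusted p = 0.214). Its mean was 0.00 with neomycin in Cy3 and -0.87 with neomycin in Cy5. Single arrays had a median of -0.09, and 15 of 25 were negative. The value of replicate 2 came from the single array named above, which stood at -5.93. Without it digit 5 of that replicate was 0.23, the replicate 0.14 and the mean -0.23, with a limma adjusted p of 0.762, so the likeness of the 3 replicates rested on 1 array.

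HOXA13 and MADH9 (SMAD9) also differed between the digits. HOXA13 gave -0.29, -0.23 and -0.31 in the replicates, yet 0.03 in digit 3 and -0.58 in digit 5. MADH9 gave -0.33, -0.24 and -0.21, with 0.03 and -0.56 by digit. Without the same array their replicate 2 stood at -0.01 and -0.06 and their means were both -0.20. All of these sit at the edge of the plot by dye orientation. Across probes the digit 3 and digit 5 values of a replicate correlated between -0.43 and 0.02. A difference between digits, tested as a dye component in limma, passed an adjusted p of 0.05 for 0 of 1281 probes (0%), while 48 (3.75%) were under 0.05 before adjustment.

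**Figure D2:**
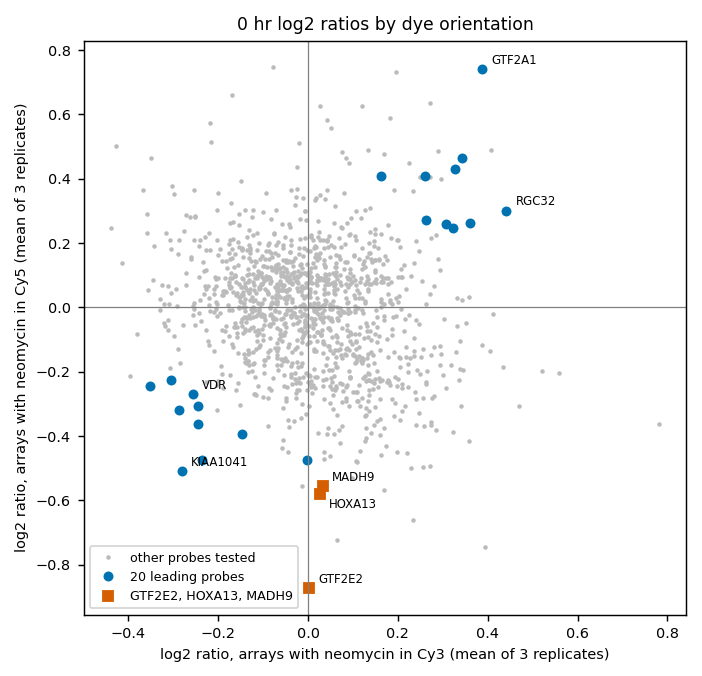
Log2 ratio at 0 hr on arrays with neomycin in Cy3 (x axis) against arrays with neomycin in Cy5 (y axis), each the mean of 3 replicates, with 1 point per tested probe. The 20 leading probes were chosen to lie in the lower left and upper right, and GTF2E2, HOXA13 and MADH9 lie low on the y axis (-0.87, -0.58 and -0.56) while close to 0 on the x axis.

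The families were then taken in turn, as 28 lists drawn from the probe names that hold 702 of the tested probes. The background was 6.09% of all tested probes at an unadjusted p under 0.05 and 0% called, so a family is described by its count at that p and by its median ratio beside the median of -0.01 over all probes. In none of the lists was a member called. Without the 2 arrays that stood apart the number of members at that p moved by at most 2 in any list.

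The general RNA polymerase II factors, which assemble the preinitiation complex at promoters, held the highest share among lists of more than 12 probes, 6 of 35 (17.1%). Of these, 2 were higher and 4 lower, so the list median of -0.03 lay near that of all probes, and it turned positive without background correction, in digit 3 alone and in the deposited log2 ratios. GTF2A1 and ERCC3, the TFIIH helicase XPB, were the higher pair. ERCC3 gave 0.13, 0.32 and 0.32, positive in 9 of 9 array sets and on both dyes (0.28 and 0.22). The lower ones were GTF2E2 and 3 TFIID subunits, TAF2C1 (-0.14, -0.40 and -0.29), TAF2I (-0.31, -0.29 and -0.11) and TAF2K (-0.13, -0.26 and -0.24). TAF2I and TAF2K drew mostly on digit 5, at -0.47 and -0.37 against 0.00 and -0.04 in digit 3. Without the 2 arrays that stood apart the list still had 6, with TAF2D in place of TAF2C1, and without the single array of replicate 2 GTF2E2 and TAF2I were above that p. The share of members with 1 sign in all replicates and digits was 14 of 35 (40%), 7 in each direction, against 19% of all probes.

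The other parts of the transcription machinery had no member at an unadjusted p under 0.05. Mediator, which links activators to the polymerase, had 11 tested members between -0.12 and 0.12. The 16 RNA polymerase I and III factors had a median of 0.03 and 12 positive ratios, but their median was negative in digit 5 alone. TAF1B, which serves polymerase I, had the highest of these means at 0.21, with 0.66, 0.07 and -0.10 in the replicates. It rested on 1 digit 3 array of replicate 1 at 2.68, without which the mean was 0.03.

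HOX genes, which pattern the body axis from clustered loci, had 26 of 36 ratios above 0 (72.2%, against 46.8% of all probes). Their median was 0.09, -0.06 and 0.09 in replicates 1, 2 and 3 and 0.04 over the replicates, and it lost its sign when only probes of brightness 800 or 1200 or more were kept. At an unadjusted p under 0.05 stood 3 members (8.33%). HOXD8 gave 0.46, -0.08 and 0.66, with replicate 2 of the other sign. HOXA4 gave 0.56, 0.06 and 0.36, most of it from digit 5 (0.63 against 0.03). HOXA13 was the lower one.

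Homeobox genes outside the HOX clusters leaned the other way, with 63 of 92 below 0 and 31.5% above it, against 46.8% of all probes. Their median was -0.03, 0.01 and -0.02 in replicates 1, 2 and 3, so replicate 2 did not share the sign. Over the replicates the median was -0.04 and stayed negative in every setting tried. Only 4 (4.35%) had an unadjusted p under 0.05. HHEX and MEIS2, a cofactor of HOX proteins, were higher, MEIS2 with 0.18, 0.17 and 0.29. SIX3 and NKX6A were lower, NKX6A with -0.08, -0.43 and -0.11. The PAX, EYA and DACH genes, listed with SIX3 and its relatives as an interacting network of early sense organ development, had 12 of 16 ratios below 0 and a median of -0.07, also negative in every setting, with SIX3 the only member at that p. PAX2, a marker of the otic placode, was at 0.04 with replicates of both signs (-0.10, 0.27 and -0.05).

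Among zinc finger genes, the KLF, SP, EGR and GATA list, which also holds other named zinc finger factors, had 5 of 44 (11.4%) at an unadjusted p under 0.05, and all 5 were higher. GATA6, a factor of endoderm and heart, gave 0.45, 0.25 and 0.14. ZIC2 was the more even at 0.26, 0.17 and 0.21. BCL11A, a repressor of blood and neural lineages, had the highest mean of the list at 0.45, but replicate 1 at 0.96 exceeded replicates 2 and 3 at 0.05 and 0.34, and without the single array of replicate 2 that replicate was -0.13 and BCL11A was above that p. The list median of 0.01 was nevertheless near that of all probes and lost its sign in 5 settings. The large ZNF and ZFP list held 8 of 113 (7.08%), 3 higher and 5 lower, led by ZNF79 (0.68, 0.12 and 0.36) and ZNF288.

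**Figure D3:**
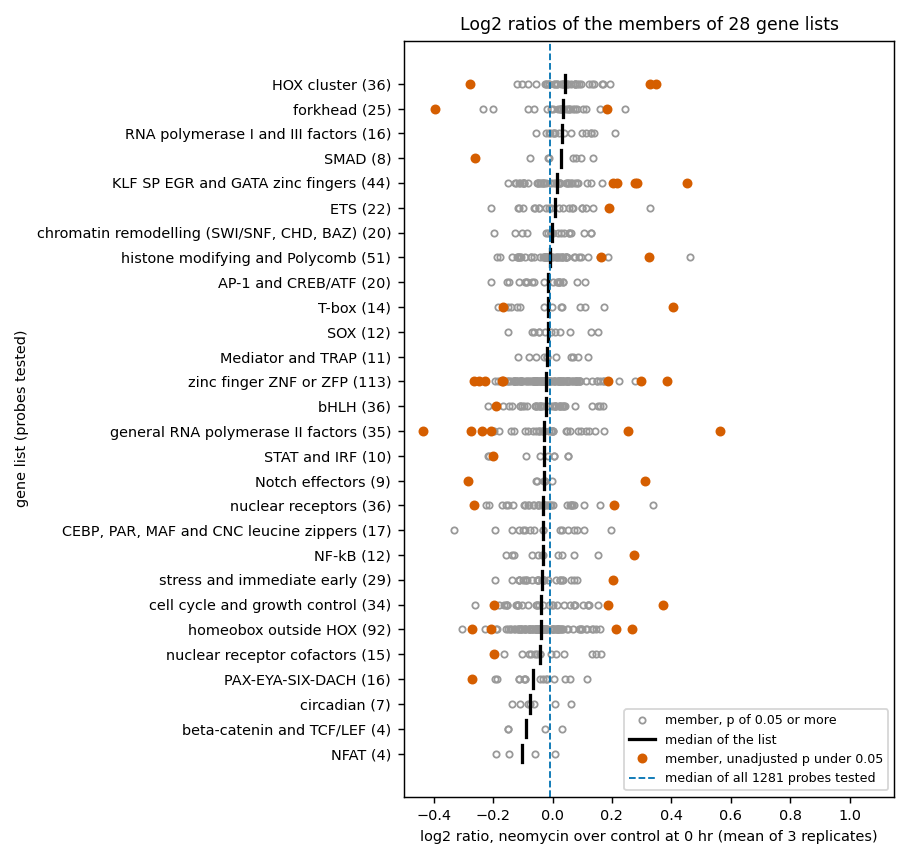
Mean log2 ratio at 0 hr (x axis) of each tested member of the 28 family lists (y axis, number tested in parentheses), with filled points for an unadjusted p under 0.05, a bar at each list's median and a dashed line at the median of all 1281 probes (-0.01). List medians lie between -0.10 and 0.04, close to the dashed line beside the spread of their members, and filled points fall on both sides.

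The plot of family members shows that medians of the larger lists differed from the median of all probes by less than the spread of their members. Forkhead genes had 18 of 25 ratios above 0 and a median of 0.03, which was negative in digit 5 alone. Their members at an unadjusted p under 0.05 were FOXC1 (0.31, -0.04 and 0.27) and KIAA1041. T-box genes had TBX15 above and TBX20 below (-0.15, -0.29 and -0.05, but 0.04 in digit 3 and -0.37 in digit 5), and TBX20 was above that p without the single array of replicate 2. Of 22 ETS genes, ELF1 alone reached that p, with 0.21, 0.16 and 0.19, and ELF3, an epithelial ETS factor, had a higher mean of 0.33 with a wider spread (0.65, 0.27 and 0.06), joining it at that p without the 2 arrays that stood apart.

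SOX genes had 0 of 12 at an unadjusted p under 0.05, and their means lay between -0.15, for SOX14, and 0.15, for SOX30. Without the single array of replicate 2 SOX30 was at 0.17, with an unadjusted limma p of 0.0416. SOX14 was at -0.08 without the 2 arrays that stood apart. SOX2 marks supporting cells and the progenitors of the sensory patch. It gave 0.40, 0.13 and -0.13, and 14 of 25 arrays were negative. Its mean went from 0.13 to 0.05 without the single array of replicate 2. SOX9 at -0.05 and SOX4 at 0.06 were likewise near 0.

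Nuclear receptors are transcription factors switched by hormones and lipids. They had 25 of 36 ratios below 0 and a median of -0.03, which turned positive without background correction, in digit 3 alone and in the deposited log2 ratios. VDR was the lower member at an unadjusted p under 0.05. NR1I2, the xenobiotic receptor, was the higher one at 0.35, 0.08 and 0.19, but was -0.02 in digit 3 and 0.44 in digit 5. PGR, the progesterone receptor, was as even as VDR at -0.16, -0.25 and -0.26 without reaching that p. Of 15 cofactors, TRIP15, the COP9 signalosome subunit COPS2, reached it with -0.10, -0.09 and -0.40. Its replicate 3 was -0.23 without the 2 arrays that stood apart, and none of the 15 then reached it.

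Signaling pathways were represented by their transcription factors. The Notch list, whose effectors act in the choice between hair cell and supporting cell, had 9 members with a median of -0.03. KIAA1528 was the higher member at an unadjusted p under 0.05. FHL1 was the lower at -0.52, 0.14 and -0.48, with -0.01 and -0.55 by digit. The HES and HEY repressors, which Notch activates, lay between -0.06 and -0.03, and HRY, the gene HES1, gave 0.05, -0.10 and -0.03.

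The 8 SMAD genes, which carry TGF-beta and BMP signals, lay between -0.26 and 0.14, and apart from MADH9 they stayed above that p. In the NF-kB list, with 12 members between -0.15 and 0.27, NRF, which represses NF-kB target promoters, was higher at 0.31, 0.33 and 0.18, with 0.08 and 0.46 by digit. RELA, the main activating subunit, was at -0.14, or -0.09 without the single array of replicate 2, and the inhibitor NFKBIA at -0.05. The STAT and IRF list of interferon and cytokine factors had 10 members between -0.22 and 0.05. STAT3 gave -0.11, -0.01 and -0.52, so replicate 3 carried most of its mean.

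Beta-catenin and the TCF/LEF factors, which end the Wnt pathway, had 0 of 4 at that p, as had the 4 NFAT genes. Their medians of -0.09 and -0.10 were the lowest of the lists. Without the single array of replicate 2 NFATC4 moved from -0.19 to -0.21, with an unadjusted limma p of 0.0433. CTNNB1 itself gave -0.12, 0.02 and -0.35, and without the 2 arrays that stood apart its replicate 3 was -0.10 and its mean moved from -0.15 to -0.07. The list median was then -0.01. Lists this short have a median set by 1 or a few probes. Circadian genes, of which 7 of 14 were bright enough to test, had a median of -0.07 and 0 at that p.

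Genes of stress and of the immediate early response, many of which are transcribed within minutes of injury, were given particular attention because the epithelia had just completed their exposure to the drug. That exposure lasted 24 hr, so RNA changes limited to its first minutes or hours were not sampled. Only EGR1 of the 29 tested (3.45%) had an unadjusted p under 0.05. It gave 0.22, 0.25 and 0.13, a mean of 0.20 ± 0.06 (SD, n = 3), and was positive on 19 of 25 arrays and in both digits (0.11 and 0.30). The limma adjusted p of EGR1 was above 0.05, as for all probes. EGR2 and EGR3, its relatives, were at -0.11 and -0.05, EGR2 at -0.06 without the single array of replicate 2.

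The AP-1 genes showed no shared direction. FOS was at -0.08 with 0.17 in replicate 3 and -0.41 in replicate 2, and JUN at -0.09. JUNB was the brightest of the stress genes, with a brightness of 20318. Its replicates gave 0.14, -0.12 and 0.22, its digits 0.47 and -0.31, and its mean was 0.08. XBP1, which drives the unfolded protein response, had the lowest mean of the list at -0.19, set by replicate 3 (-0.59) against -0.05 and 0.07. Without the 2 arrays that stood apart, both of that replicate, XBP1 was at -0.07 and no longer the lowest. NFE2L2, the factor of the antioxidant response, was negative in each replicate at -0.12, -0.19 and -0.03, with a mean that went from -0.11 to -0.06 without the single array of replicate 2. The heat shock factors HSF1 and HSF2 were both at -0.04 and the hypoxia factor HIF1A was at 0.01. The AP-1 and CREB list as a whole had 0 of 20 members at an unadjusted p under 0.05 and 0 with 1 sign in all replicates and digits, against 19% of all probes. These counts were 1 (ATF2, lower) and 2 without the 2 arrays that stood apart.

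**Figure D4:**
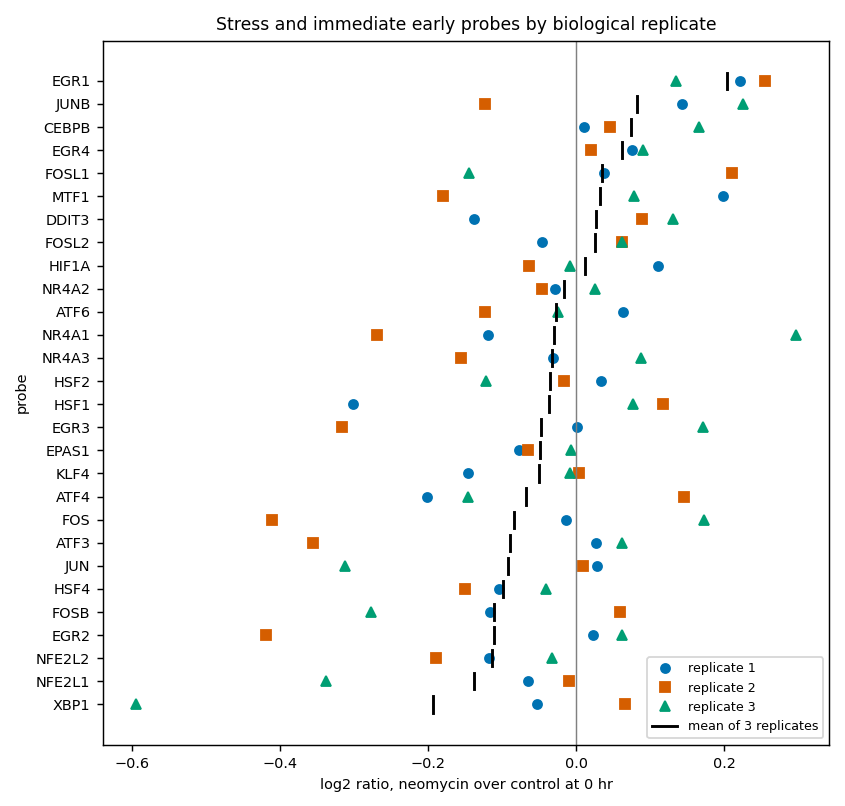
Log2 ratio of neomycin over control at 0 hr (x axis) for stress and immediate early probes (y axis, ordered by mean), with 1 point per biological replicate and a bar at the mean of the 3. EGR1 (mean 0.20) is the highest bar with all replicates above 0, most other probes have replicates on both sides of 0, and XBP1 has the lowest mean (-0.19).

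The plot of the stress probes shows replicate 2 at the low end for FOS, EGR2 and EGR3 and replicate 3 at the low end for XBP1, JUN and FOSB. The median of the list was -0.03, -0.05 and 0.06 in replicates 1, 2 and 3. Its mean-based median of -0.04 was below that of all probes by less than those medians differed.

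Cell cycle and growth control genes bear on the division of supporting cells that follows damage. Of 34, 3 (8.82%) were at an unadjusted p under 0.05. RGC32 and E2F6, a repressor of the E2F family (0.13, 0.11 and 0.32), were higher and TRIP15 lower, and 2 of 34 (5.88%) remained at that p without the 2 arrays that stood apart, TRIP15 not among them. MYBL2, which drives genes of mitosis, gave -0.14, -0.04 and -0.60. The list median of -0.04 turned positive in digit 3 alone and without replicate 3.

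Among chromatin genes, the remodelers of the SWI/SNF, CHD and BAZ groups had 0 of 20 at an unadjusted p under 0.05, with means from -0.20 to 0.13. Histone modifying and Polycomb genes had 2 of 51 (3.92%), both higher: WHSC1, a histone H3 methyltransferase (0.52, -0.03 and 0.48), and GCN5L2, an acetyltransferase (0.13, 0.32 and 0.04). Without the 2 arrays that stood apart CBX8, a Polycomb gene, joined them as a lower member.

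Of the factors with leucine zippers outside AP-1, CEBPG had the lowest mean at -0.33, with -0.68, -0.32 and 0.02 in the replicates and 0.06 and -0.72 by digit, and 0 of 17 members were at an unadjusted p under 0.05. Of 36 bHLH genes, NHLH2, a neural bHLH factor, was the only one, at -0.28, -0.03 and -0.26, joined by LYL1 and TCF21 without the 2 arrays that stood apart. CUTL1, a homeobox repressor, was at -0.12, or -0.07 without those arrays. KIAA0173, the tubulin ligase gene TTLL4, was at 0.04, with -0.43 in digit 3 and 0.50 in digit 5.

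The tissue label was checked against transcription factors that mark its cells, the only markers such an array holds. Hair cells are the cells neomycin removes. Their 4 marker probes were all tested and 0 were at an unadjusted p under 0.05. POU4F3 gave 0.06, -0.34 and -0.05 (its replicate 2 was -0.19 without the single array), ATOH1 -0.05, 0.02 and -0.09, BARHL1 -0.04, 0.09 and -0.05, and GFI1 0.07, -0.08 and 0.15. Each had replicates on both sides of 0. None of them met the detection rule, with brightness between 327 and 497.5, so neither the presence of hair cell RNA in the controls nor its loss after the drug was measurable with these probes.

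Supporting cell markers were also near 0, with 7 of 9 bright enough to test, 0 detected and means from -0.15 for ID3 to 0.13 for ID1 and SOX2. The remaining lists mark other cells that a dissected utricle could carry. Ganglion neuron (4 tested), stromal (6), Schwann cell and melanocyte (4), leukocyte (5) and erythroid (3) lists each had 0 members at an unadjusted p under 0.05, with medians from -0.05 to 0.04. TCF21, a stromal marker, gave -0.34, 0.09 and -0.40 in the replicates, with 0.10 in digit 3 and -0.53 in digit 5. Without the 2 arrays that stood apart TCF21 was at -0.25, with an unadjusted limma p of 0.0496. Without the single array of replicate 2 its unadjusted limma p was 0.0247. MSC, a stromal bHLH gene, was the only one of all these markers detected, at 0.03.

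The detected probes allow the brightest signals to be read by themselves. They numbered 114 of 1507 (7.56%). Of them 8 (7.02%) had an unadjusted p under 0.05, against 70 of the 1167 other tested probes (5.998%). Their median SD over replicates was 0.236, against 0.126 for the others, and 9.65% had 1 sign in all replicates and digits, against 19.9%. In the main processing the brighter probes thus gave ratios that differed more between replicates. Whether this depends on the background correction was not tested. The 8 were ATP7B, FLJ11186, HOXD8, LOC57209 and NUP153, which were higher, and FHL1, GTF2E2 and HOXA13, which were lower.

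Of these, LOC57209, the zinc finger gene ZNF248, was positive throughout, at 0.50, 0.11 and 0.74 in the replicates and at 0.41 and 0.49 by digit, with a limma adjusted p of 0.513. ATP7B, a copper transporter, gave 0.12, 0.49 and 0.30, with 0.05 and 0.56 by digit. NUP153, a nuclear pore protein, gave 0.71, 0.40 and 0.01. Replicate 3 of NUP153 was near 0, and digit 5 at 0.63 was above digit 3 at 0.12.

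The 0 hr ratios were finally set against the mean of 24 and 48 hr of recovery, which used other cultures and other controls. In limma 0 of 1281 probes (0%) differed at an adjusted p under 0.05, the smallest being 0.999, and 24 (1.87%) at an unadjusted p under 0.05, so no ratio can be called particular to 0 hr. Of the 20 leading probes, 19 were farther from 0 at 0 hr than at either later time, which their choice by the 0 hr values favors. The sign was the same at both later times for 18 of the 20. The share over all probes was not taken, so that count has no background to be read against.

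RGC32 went from 0.37 at 0 hr to 0.03 and 0.07 at the later times, a difference of 0.32 ± 0.09 (SE) from the later mean. ZNF288 was -0.27 at 0 hr and 0.00 and 0.15 later. TAF2C1 was -0.28 and then -0.01 and -0.02. These were 3 of the 4 leading probes with an unadjusted p under 0.05 for the difference, and after adjustment over all probes in limma none differed (adjusted p = 0.999).

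Other leading probes kept the sign of their 0 hr ratio at both later times. TCF8 had -0.30, -0.36 and -0.31 at the 3 times in order. HIVEP2 was 0.29, 0.11 and 0.25, and KIAA1528 0.31, 0.17 and 0.27. GTF2A1 was at 0.56, 0.28 and 0.34.

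**Figure D5:**
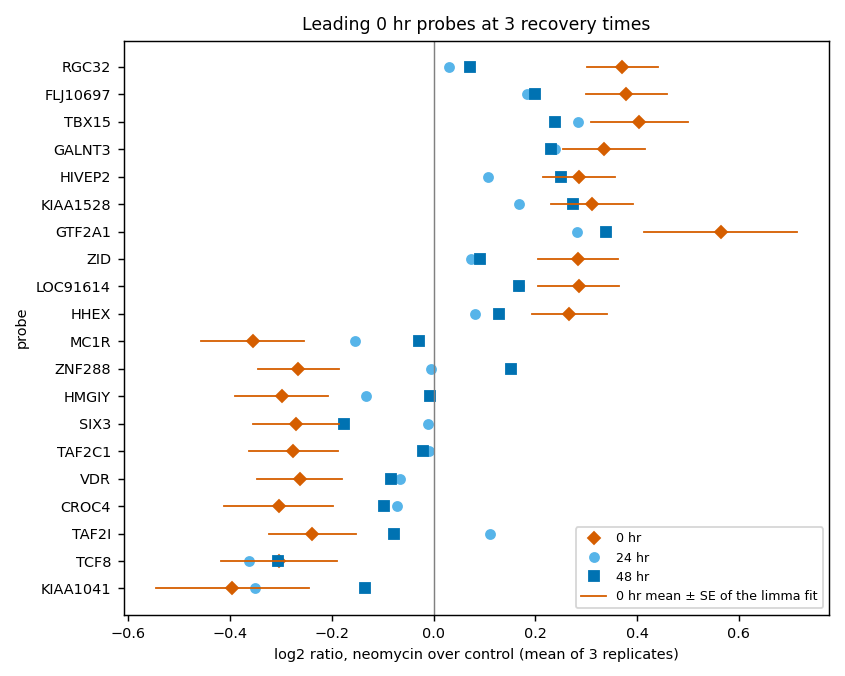
Log2 ratio of neomycin over control (x axis, mean of 3 replicates) of the 20 leading 0 hr probes (y axis) at 0, 24 and 48 hr, with lines for the 0 hr mean ± SE of the limma fit. RGC32 moves from 0.37 at 0 hr to 0.03 and 0.07, while TCF8 stays at -0.30, -0.36 and -0.31.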

How the data were processed

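The authors quantified both dye images of each array with ImaGene 4.1 and deposited spot and local background intensities, not normalized, with 3072 spots of 1534 names, 27 of them not genes. The deposited series table held log2 ratios that equaled the uncorrected spot ratios (largest difference 5.33e-15), with array medians at 0 hr from -2.033 to 1.809, so it was neither background corrected nor centered, and served as an alternative. In R 4.3.3 with limma 3.58.1, intensities were background corrected (normexp, offset 50) and normalized within arrays by loess, with flagged and non-gene spots at weight 0. Each ratio was turned to neomycin over control by the title digit. The dimmest 15% of probes (brightness under 304.9) were removed. One coefficient per recovery time was fitted to 9 replicate values (lmFit, eBayes), with Benjamini-Hochberg adjustment over the 1281 probes, in place of the t-test of the study's methods, which was run as an alternative. The number of arrays per replicate limits the precision. The procedure was tested on simulated data. The changes simulated there were larger than any 0 hr ratio measured here, and noise was drawn separately for each array. How well ratios of the measured size would be recovered was therefore not tested.

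Named were the 10 leading probes in each direction as described, the member of each list with the smallest unadjusted p in each direction, all cell type markers, stress genes, and CEBPG, CTNNB1, KIAA0173, TRIP15, BCL11A and CUTL1, which the study measured by a second method. In the neomycin utricle that method covered 0 hr for the first 4 of these genes, and only 48 hr for BCL11A and CUTL1. Other probes with values (such as SOX2, STAT3, PGR, ELF3 and the detected probes) were chosen after their values were seen. The members and lists were chosen with earlier results of these data known. Probe names are those of the array design and can be old. Some items are not reported here. No probe sequence or genome coordinate was used here.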

Additional observations from a re-analysis of the deposited data

How the results depend on the processing

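Calls at an adjusted p under 0.05 (limma) numbered 0 in every alternative run except 1: without replicate 2 of 0 hr, 1 probe (TBX15) was called, so leaving out replicates gave 0 to 1. The count past 1.2-fold and an unadjusted p under 0.05, 38 (26 higher), was 25 (15 higher) with no background correction, 19 (16 higher) with plain subtraction, 13 (10 higher) and 6 (4 higher) with probes of brightness 800 and 1200 or more, 74 (44 higher) in digit 5 alone, 22 (8 higher) in the centered series table, 11 (8 higher) by the methods' t-test over 3 replicates, and 34 to 94 on leaving out a replicate, 94 of them without replicate 2. The split moved with print-tip loess (29, 23 higher), median centering (51, 17 higher) and scaling between arrays (57, 33 higher). The methods' t-test over 25 hybridizations gave 103 probes at an unadjusted p under 0.05, 33 of them past 1.2-fold, and 0 after Benjamini-Hochberg adjustment.

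In digit 3 alone the ratio had the other sign for HOXA13 (0.0265), TBX20 (0.0434), GTF2E2 (0.00297), NR1I2 (-0.0239) and MADH9 (0.0327). Of the 37 named genes at an unadjusted p under 0.05, 32 kept their sign in all of up to 25 settings, and 3 of 35 lists kept the sign of their median.

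Deviations of same-numbered replicates at different times gave 9 correlations from -0.117 to 0.196, 1 above 0.1. At 0 hr even arrays of the same replicate and digit correlated at a median of only 0.08. Low values could therefore not decide whether the numbers pair the replicates, and the main fit took them as unpaired. With a replicate block 0 probes were called and 40 were past 1.2-fold.

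Chosen after seeing the data, leaving out the 2 arrays that stood apart gave 43 past 1.2-fold (35 shared with the 38), leaving out the single array of replicate 2 gave 28 (18 higher, 24 shared), taking image date as a random block gave 37, and moving 1 array of 48 hr by 1 row, which raised its brightness correlation from 0.145 to 0.632, gave 38. Detected probes ran from 94 to 148 with thresholds of 1200 and 800, and from 131 to 144 without 1 replicate. Signal over background was low. The count past 1.2-fold moved with the background correction and with the brightness limit, as given above. The effect of signal over background by itself was not tested.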
